A study of Mus musculus with 16 samples.

Results

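The messenger RNAs of the cytosolic ribosomal proteins were followed across tumours of the mouse colon carcinoma line MC38 grown under the skin of mice. The members were taken by symbol alone: Rpl or Rps with a number and at most a letter, x or l after it, plus Rpsa, Rplp0, Rplp1 and Rplp2. The S6 kinases, which carry Rps6k symbols, and symbols ending in -ps were left out. This gave 82 genes out of 18480 entries, of which 79 reached the level needed for testing. The study holds 16 libraries in 4 groups of 4, namely control tumours, tumours of exercised mice (exercise), tumours given an antibody against PD-L1 (anti-PD-L1), and tumours given both (combination). The labels name anti-PD-L1, while the title of the series speaks of PD-1 blockade. They give no strain, age, exercise schedule or antibody dose, and name no animal or culture behind a replicate. The spread between replicates, on which every p-value rests, may therefore be technical.

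Each cytosolic ribosome joins a small subunit, which reads the messenger RNA, to a large subunit, which forms the peptide bonds. Each ribosomal protein (RP) is needed in about equal number, and vertebrate RP messenger RNAs start with a run of pyrimidines, the TOP element, through which mTORC1 and the RNA-binding protein LARP1 set their translation. Free RPL5 and RPL11 bind MDM2 when subunits are not assembled, which links RP supply to p53. In cancer the abundance of RP messenger RNA is often read together with MYC and growth.

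The values are FPKM, that is, fragments counted on a gene per kilobase of its length and scaled to the mapped total. Differences are given on the scale of log2(FPKM + 1), each with its standard error from limma, and a gene was called at a Benjamini-Hochberg adjusted p under 0.05 over the 11868 genes tested. The depth of the libraries is unknown. In bulk tumours, a lower number of cells of a type and less RNA per cell cannot be told apart. Libraries summed to between 478672 and 529732 FPKM. Controls 1 and 2 stood apart over all genes, at -30.8 and -41.4 on a leading principal component with 30.1% of the variance, where the other 14 libraries lay between -17.0 and 26.3. Of 8 epithelial keratin and adhesion markers, Krt14, Krt19 and Cdh1 reached the testing level, and the 8 together summed to between 17.2 and 87.6 FPKM. The other 5, including Epcam and Krt8, did not reach it, so these defining markers of a colon epithelium were under 1 FPKM in most libraries.

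A 40-base window around the annotated transcription start, 20 bases before and 20 from the start on, was read for the 62 members with an entry in the RefSeq promoter table of GRCm38.p6. The windows below belong to 5 RP genes called in the antibody comparison (Rpl4, Rpl13a, Rpl5, Rps24, Rpl26) and to 3 that did not follow the other members (Rplp0, Rps27l, Rpl36al). They show how far the start-site run differs among genes. Capitals mark the longest unbroken run of C and T on the strand of the gene, and each window is written 5′ to 3′.
Rpl4, chr9:64173367-64173406, plus strand: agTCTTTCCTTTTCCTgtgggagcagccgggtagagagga
Rpl13a, chr7:45128726-45128765, minus strand: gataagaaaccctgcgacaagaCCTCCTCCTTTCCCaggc
Rpl5, chr5:107900508-107900547, plus strand: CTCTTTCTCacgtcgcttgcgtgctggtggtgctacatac
Rps24, chr14:24490658-24490697, plus strand: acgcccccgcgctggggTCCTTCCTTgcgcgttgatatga
Rpl26, chr11:68901546-68901585, plus strand: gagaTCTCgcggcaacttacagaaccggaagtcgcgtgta
Rplp0, chr5:115559447-115559486, plus strand: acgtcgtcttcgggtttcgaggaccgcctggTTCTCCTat
Rps27l, chr9:66946066-66946105, plus strand: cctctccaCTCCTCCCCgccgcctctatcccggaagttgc
Rpl36al, chr12:69184048-69184087, minus strand: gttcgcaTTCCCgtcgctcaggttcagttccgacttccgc

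A run of at least 8 C or T letters in this window, searched on the strand of the gene only, was found in 41.9% of the 74 windows of members and in 16.05% of the 32851 windows of all genes. Rpl4 and Rpl13a carried long runs and Rpl26 and Rpl36al short ones. Among called genes whose windows are not shown, Rpl22 had longest runs of 4 and 5 letters, Rpl9 of 4 and Rps15 of 7, all under 8. The antibody difference described below had a median of 0.24 over the 30 tested members with such a run and 0.28 over the 29 without. The run is a description of these letters, and annotated starts can lie some bases away from the start in use. The windows of Rps27l and Rpl5 lie inside the RefSeq span of the gene, that of Rpl5 from its first base on, while the other 6 windows reach upstream of it.

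Members were among the most abundant transcripts of the tumours. Between 53 and 58 of the 100 highest entries of a library were members, and between 3 and 6 of the highest 10. Rps2, a protein of the small subunit at the entry of the messenger RNA channel, had the highest mean level, 4032 FPKM over the 16 libraries. Rpl12, Rpl23a, Rps26 and Rpl10 followed with 3009, 2947, 2709 and 2668 FPKM. At the low end among core subunit proteins, Rps6, the target of the S6 kinases, was listed with a mean of 51.7 FPKM. Its annotated transcript shares 84.6% of its 50-base windows with transcripts of other genes in the GENCODE annotation of that build. Over 31 tested members with at least 50% shared windows the median level was 1461 FPKM, and over 47 with less sharing it was 1315 FPKM. Whether sharing had a part in the level of Rps6 was not tested. How reads on such copies were assigned is not given in the sources used here, and levels of single members are uncertain for that reason.

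The lowest mean levels were those of the tissue-restricted paralogues Rpl3l, Rpl39l and Rpl10l. Rpl3l, known from heart and skeletal muscle, measured 0.48, 0.89, 0.53 and 0.47 FPKM in the control libraries, 0.43, 0.36, 0.33 and 0.42 with exercise, 0.29, 0.24, 0.25 and 0.31 with anti-PD-L1, and 0.39, 0.33, 0.39 and 0.19 in the combination. All these values stood below 1 FPKM, with control 2 the highest. Rpl39l, known from the testis, had a mean of 0.37 FPKM with control 1 the highest at 1.47, and Rpl10l, also of the testis, was listed at 0 in 15 libraries and at 0.05 in exercise 3. These 3 genes were not tested. Rpl32l passed the filter with a mean of 1.48 FPKM. Rps27l, an RPS27 paralogue that p53 induces, had a mean of 51.9 FPKM beside 1661 for Rps27.

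The share of the summed FPKM held by the 82 members had a higher mean in both groups that had received the antibody, with and without exercise. It was 19.7%, 18.1%, 21.1% and 20.7% in the control libraries and 20.5%, 19.1%, 21.2% and 18.6% with exercise. It was 19.8%, 22.2%, 23.4% and 24.3% with anti-PD-L1 and 21.2%, 24.5%, 23.2% and 22.1% in the combination. Group means were 19.9% ± 1.32, 19.9% ± 1.19, 22.4% ± 1.93 and 22.7% ± 1.42 (SD, n = 4 each). Library 1 of anti-PD-L1 lay within the range of the groups without antibody, while libraries 2, 3 and 4 lay above all 8 of them. All combination libraries lay above all controls, the closest pair being 21.17% and 21.09%, and combination 1 lay just under exercise 3 at 21.21%. Summed FPKM of all other genes had group means of 395040, 391980, 395170 and 395990, so the larger share came with a higher member sum. The median log2(FPKM + 1) over all genes tested had group means of 3.77, 3.75, 3.73 and 3.74 in the order control, exercise, anti-PD-L1, combination.

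**Figure D1:**
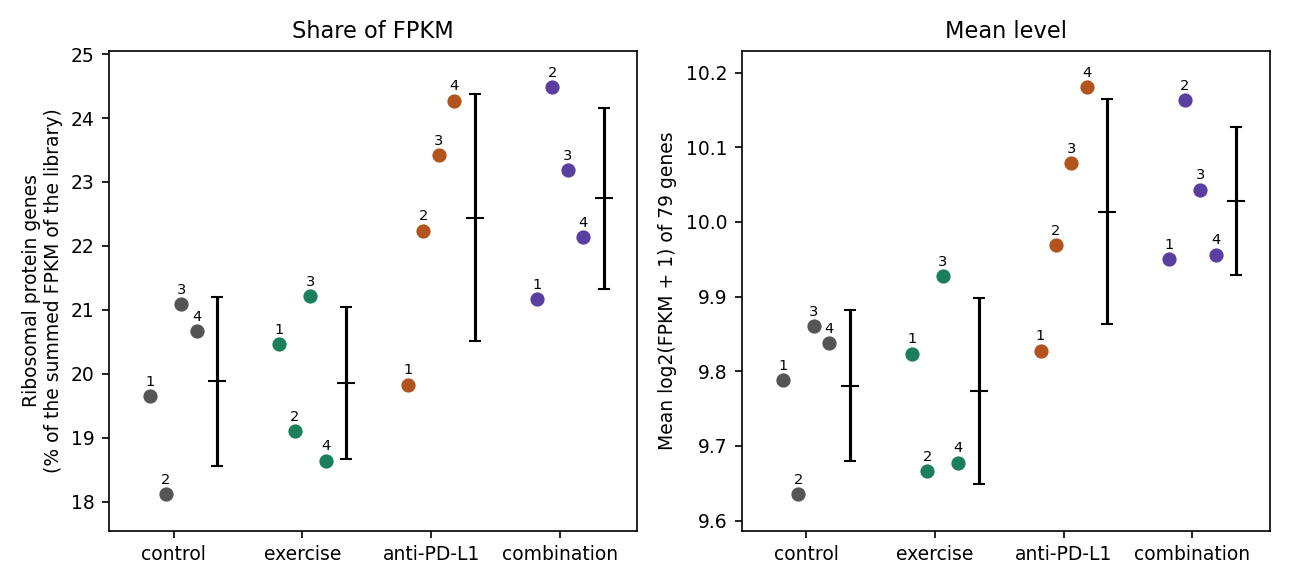
Left, the percentage of the summed FPKM of each library held by the 82 ribosomal protein genes; right, the mean log2(FPKM + 1) of the 79 genes tested, by group. Points are libraries with their replicate number, and bars are the group mean ± SD (n = 4); both axes start above 0. The group means on the left are 19.9%, 19.9%, 22.4% and 22.7%, and anti-PD-L1 library 1 sits among the libraries without antibody.

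The first comparison asked what exercise did without the antibody, and the members had no call and a median close to that of all genes. The median member difference, exercise minus control, was -0.03 beside -0.02 over all genes, and 31 of 79 members lay above 0, beside 46.2% of all genes. In limma 0 members were called, beside 0% of all genes, and 2 passed an unadjusted p of 0.05, beside 18% of all genes. The background of this comparison depended on 1 library: without exercise 1, limma called 611 of all genes and 0 members. No member had groups that did not overlap, beside 4.21% of all genes whose exercise libraries all lay higher and 3.51% whose exercise libraries all lay lower. The smallest p belonged to Rpl31, Rpl37a and Rpl7, with differences of 0.31 ± 0.14, 0.22 ± 0.11 and -0.23 ± 0.11, and the smallest adjusted p of a member was 0.259. Rpl31, a protein beside the exit of the peptide tunnel, measured 266, 223, 291 and 328 FPKM in the control libraries, 293, 287, 413 and 382 with exercise, 370.0, 363, 379.9 and 427 with anti-PD-L1, and 416, 409, 387 and 319 in the combination. Exercise libraries 3 and 4 were above all controls for this gene, and exercise 1 and 2 were among them.

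With the antibody alone, nearly all members lay higher than in control, though none passed the adjusted threshold. The median difference, anti-PD-L1 minus control, was 0.23, a ratio of 1.17, beside -0.04 over all genes. Of 79 members, 76 lay above 0, beside 42.3% of all genes. In limma 0 members were called, beside 0.253% of all genes, while 33 passed an unadjusted p of 0.05 upwards, beside 7.77% of all genes. The libraries of the groups did not overlap in 11 members, all higher with antibody, beside 3.57% of all genes. Rpl31 differed by 0.48 ± 0.14 (adjusted p 0.0834 in limma, the smallest of the members) and Rps24 by 0.49 ± 0.15 (0.0993). Without control 4, 4 members and 768 of all genes were called.

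The combination against control gave the same kind of picture with other p-values, and shares its controls with the comparison above. The median difference, combination minus control, was 0.26 beside -0.03 over all genes, and 76 of 79 members lay above 0, beside 41.9% of all genes. In limma 0 members and 0% of all genes were called, and 39 members passed an unadjusted p of 0.05, all higher, beside 3.01% of all genes. In 22 members each combination library lay above each control, beside 1.46% of all genes. Rpl31, Rpl5 and Rpl23a had the smallest p, with differences of 0.47 ± 0.14, 0.31 ± 0.10 and 0.38 ± 0.12, and the smallest adjusted p was 0.572.

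Set against exercise alone, the tumours with antibody were again higher in these genes. The median difference, combination minus exercise, was 0.28 beside -0.02 over all genes, with 77 of 79 members above 0, beside 46.1% of all genes. In limma 0 members and 0% of all genes were called, 45 members passed an unadjusted p of 0.05, all higher, beside 6.7% of all genes, and 21 members did not overlap, beside 3.21%. Rpl7, Rpl5 and Rpl4 differed by 0.51 ± 0.11, 0.39 ± 0.10 and 0.43 ± 0.11, with adjusted p of 0.188, 0.188 and 0.199 in limma. Without exercise library 1, 2 members and 184 of all genes were called in that comparison. For anti-PD-L1 minus exercise the median was 0.25 beside -0.04, with 74 members above 0, beside 44.1%. There 1 member was called, beside 1.58% of all genes in either direction and 0.8% higher, 40 passed an unadjusted p, all higher, beside 9.56%, and 13 did not overlap, beside 4.42%. That member was Rpl26, a large subunit protein that also binds p53 messenger RNA, which rose by 0.45 ± 0.11 (adjusted p 0.0485 in limma). Its call was kept in 2 of 16 fits that each left out 1 library.

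Between the combination and the antibody alone, the median of the members was close to that of all genes. The median difference, combination minus anti-PD-L1, was 0.01 beside 0.02 over all genes, with 47 of 79 members above 0, beside 55.2% of all genes. In limma 0 members and 0% of all genes were called, and 0 members passed an unadjusted p of 0.05, beside 3.94% of all genes. No member had groups that did not overlap, beside 1.4% of all genes higher and 0.843% lower. Rpl41, Rpl36al and Rpl18 had the smallest p, with differences of 0.20 ± 0.12, 0.21 ± 0.14 and 0.15 ± 0.10 and adjusted p of 0.968. The sign of the median depended on single libraries: it was -0.06 without anti-PD-L1 library 1 and 0.07 without library 4. The interaction, which asks whether exercise changes the difference made by the antibody, had a median of 0.03 beside 0.03 over all genes. In limma it called 0 members and 0% of all genes, and 0 members passed an unadjusted p, beside 13.1%. Without exercise library 1 it called 223 of all genes and again 0 members. Its smallest p-values were those of Rpl36al (0.42 ± 0.20), Rps2 (0.39 ± 0.20) and Rpl7 (0.28 ± 0.16). The test of any difference among the 4 groups also called 0 members, beside 0.135% of all genes, with 44 at an unadjusted p under 0.05, beside 20.8%.

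Because exercise and its interaction called no member, the antibody difference was also averaged over both activity levels, 8 libraries against 8, as a contrast of the same fit chosen after the values were seen. In this contrast 12 of the 79 members rose (15.2%) and none fell, beside 2.41% of all genes called in either direction and 1.24% called higher. The median member difference was 0.26, a ratio of 1.20, beside -0.03 over all genes, and 76 members lay above 0, beside 41.4% of all genes. At an unadjusted p of 0.05, 58 members lay higher and 0 lower, beside 8.15% of all genes higher. The largest difference was that of Rps24, 0.49 ± 0.11, and the lowest that of Rpl32l, -0.15 ± 0.18. Which library was left out decided this count. Dropping control 1, 2, 3 or 4 left 0, 0, 6 or 16 members called, and dropping exercise 1, 2, 3 or 4 left 3, 0, 11 or 0. For anti-PD-L1 library 1, 2, 3 or 4 the numbers were 17, 0, 6 or 0, and for combination 1, 2, 3 or 4 they were 1, 0, 5 or 4. Over all genes the calls in these 16 fits ran from 40, without exercise 2, to 516, without control 4, beside 286 with all libraries. The median member difference stayed between 0.23 and 0.30. A fit added once values were known left out both control 1 and control 2, and called 0 members and 28 of all genes. Its median member difference was 0.21 and 78 of 79 members lay above 0. Exercise averaged over the antibody gave a median of -0.01 beside -0.00178 over all genes and called 0 members in limma, beside 0% of all genes, with 1 at an unadjusted p under 0.05, beside 8.2%. The smallest p there were those of Rpl37a (0.18 ± 0.07), Rps6 (-0.17 ± 0.09) and Rpl41 (0.15 ± 0.09).

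**Figure D2:**
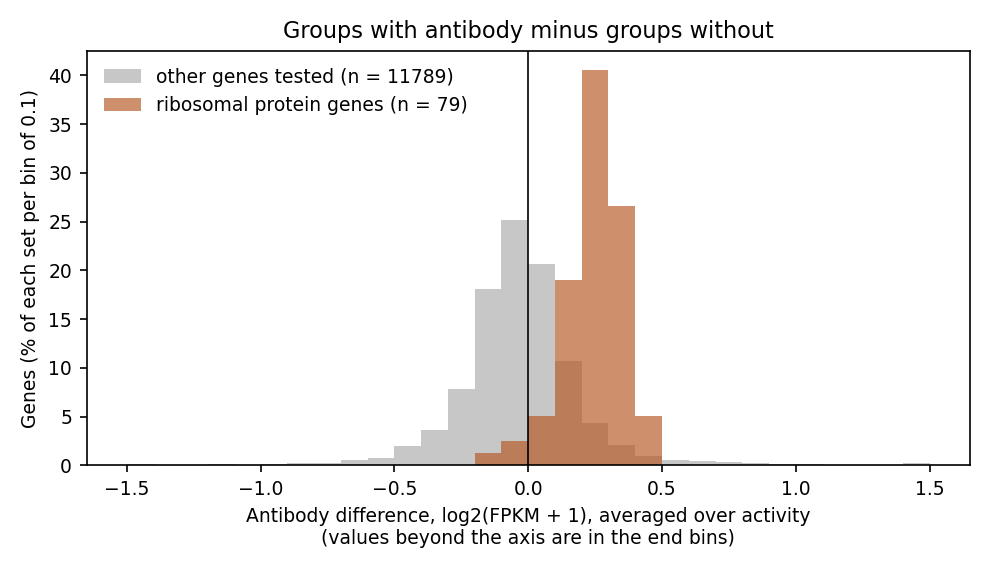
Distribution of the antibody difference, groups with antibody minus groups without on the log2(FPKM + 1) scale, for the 79 ribosomal protein genes and for the other genes tested, as a percentage of each set per bin. The ribosomal protein genes centre on 0.26 and 76 of 79 lie above 0, while the median over all genes is -0.03.

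The 2 small subunit genes called were Rps24 and Rps15. Rps24, mutated in some patients with Diamond-Blackfan anaemia (chromosome 14, 24490678 to 24496960 in GRCm38.p6), measured 897, 889, 1233 and 1358 FPKM in the control libraries, 958, 822, 1209 and 1032 with exercise, 1377, 1534, 1345 and 1817 with anti-PD-L1, and 1287, 1452, 1337 and 1584 in the combination. Controls 1 and 2 and exercise 2 were lowest, anti-PD-L1 library 4 was highest, and control 4 overlapped the antibody groups. The antibody difference of Rps24 was 0.49 ± 0.11 with an adjusted p of 0.0336 in limma. Rps15, which sits at the head of the small subunit (chromosome 10, 80292431 to 80294114), measured 1996, 1697, 2172 and 2105 FPKM in the control libraries, 2172, 1986, 2208 and 1639.6 with exercise, 2006, 2805, 2774 and 2945 with anti-PD-L1, and 2379, 2952, 2564 and 2359.7 in the combination. Anti-PD-L1 library 1 stood with the groups without antibody, and the difference was 0.38 ± 0.09 (adjusted p 0.0491 in limma).

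The large subunit held 9 of the called genes. Rpl7, an RNA-binding protein of the large subunit (chromosome 1, 16101295 to 16104433), measured 1251, 1059, 1247 and 1333 FPKM in the control libraries, 1206, 904, 1017 and 1057 with exercise, 1353, 1467, 1288 and 1616 with anti-PD-L1, and 1506, 1495, 1661 and 1282 in the combination. Exercise libraries 2, 3 and 4 were low, and control 4 overlapped the antibody groups. Its difference of 0.37 ± 0.08 had the smallest adjusted p of the members, 0.0326 in limma. Rpl26 (chromosome 11, 68901566 to 68904534) measured 1592, 1443, 1771 and 1688 FPKM in the control libraries, 1600.0, 1229, 1518 and 1555 with exercise, 1699.7, 2033, 2077 and 2243 with anti-PD-L1, and 1788, 1977, 1877 and 2039 in the combination. Only anti-PD-L1 library 1, at 1699.7 FPKM, fell within the range of the groups without antibody, whose highest library was control 3 at 1771 FPKM. The Rpl26 difference was 0.35 ± 0.08. Rpl5, which carries the 5S rRNA together with RPL11 (chromosome 5, 107900508 to 107909005), measured 1171, 960.5, 1181 and 1026 FPKM in the control libraries, 1016, 941, 1112 and 1023 with exercise, 1169, 1286, 1149.8 and 1393 with anti-PD-L1, and 1349, 1349, 1471 and 1211 in the combination. Controls 1 and 3 reached the level of anti-PD-L1 libraries 1 and 3, and every combination library lay above all 8 libraries without antibody. The difference of Rpl5 was 0.30 ± 0.07 (adjusted p 0.0382 in limma), beside 0.22 ± 0.09 (0.152) for Rpl11, its partner.

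Rpl22, an RNA-binding protein lost in some tumours (chromosome 4, 152324436 to 152334082), measured 276, 227, 297 and 299 FPKM in the control libraries, 259, 256, 285 and 248 with exercise, 301, 330.0, 352 and 392 with anti-PD-L1, and 299.8, 387, 303 and 330.3 in the combination. It was the one member in which all 8 libraries with antibody lay above all 8 without, a pattern seen higher in 0.152% of all genes, and the gap was small, from 299.2 to 299.8 FPKM. Its difference was 0.32 ± 0.08 (adjusted p 0.0462 in limma). Rpl22l1, its paralogue, which the symbol rule leaves out, rose by 0.37 ± 0.09 (adjusted p 0.0488 in limma), with 18.1 to 41.1 FPKM over the libraries. The transcript of Rpl22 shares 5.19% of its 50-base windows with other transcripts, beside a median of 44.3% over the members.

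Rpl17, Rpl30, Rpl9, Rpl4 and Rpl13a were also called. Rpl17, at the exit of the peptide tunnel (chromosome 18, 74998978 to 75003381), measured 1307, 1182, 1439.8 and 1672 FPKM in the control libraries, 1417, 1236, 1442 and 1259.8 with exercise, 1429, 1851, 1876 and 2309 with anti-PD-L1, and 1629.7, 2002, 1722 and 1918 in the combination. Rpl30 (chromosome 15, 34440505 to 34443276) measured 1229, 1075, 1369 and 1627 FPKM in the control libraries, 1283, 1053, 1404 and 1099 with exercise, 1503, 1474, 1664 and 2335 with anti-PD-L1, and 1538, 1944, 1795 and 1611 in the combination. In both, anti-PD-L1 library 4 stood far above the other libraries of its group and control 4 above the other controls. Their differences were 0.42 ± 0.10 and 0.45 ± 0.11, with adjusted p of 0.0382 and 0.0465 in limma. Rpl9 (chromosome 5, 65388364 to 65391431) measured 768, 665, 804 and 796 FPKM in the control libraries, 723, 712, 798 and 673 with exercise, 852, 935, 886 and 1148 with anti-PD-L1, and 893, 990.4, 1003 and 767 in the combination. Combination 4 lay within the controls, and the difference was 0.33 ± 0.08. Rpl4, a protein that lines the peptide tunnel (chromosome 9, 64173387 to 64178562), and Rpl13a, which is released from the subunit after interferon gamma (chromosome 7, 45125563 to 45128745), rose by 0.33 ± 0.08 and 0.28 ± 0.07. Rpl4 had group means of 1645 ± 128, 1462 ± 153, 1938 ± 218 and 1968 ± 239 FPKM (SD, n = 4), in the order control, exercise, anti-PD-L1, combination. In the same order, Rpl13a had 1178 ± 90.5, 1169 ± 111, 1425 ± 162 and 1434 ± 103 FPKM. In each gene the antibody groups were close to each other and the groups without antibody lower.

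The P stalk, which recruits elongation factors to the large subunit, is built from RPLP0 and pairs of RPLP1 and RPLP2. Rplp1 rose by 0.28 ± 0.07 (adjusted p 0.0488 in limma), and Rplp2 differed by 0.36 ± 0.09 (0.0536). Rplp1 measured 2034, 1689, 1772 and 1789 FPKM in the control libraries, 1914, 1709, 1773 and 1444 with exercise, 1973, 1987, 2208 and 2324 with anti-PD-L1, and 2217, 2194, 2252 and 1958 in the combination. Control 1 overlapped the antibody groups and exercise 4 was the lowest library. Rplp0, often used as a reference gene, measured 1943, 1920.3, 1744 and 1445 FPKM in the control libraries, 1850.0, 2179, 2015 and 1891 with exercise, 1544, 1858, 1889.9 and 1915 with anti-PD-L1, and 2009.5, 1498, 2030.3 and 1869 in the combination. The groups overlapped throughout, the lowest values were those of control 4, combination 2 and anti-PD-L1 library 1, and its difference was -0.04 ± 0.08 (adjusted p 0.833 in limma).

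**Figure D3:**
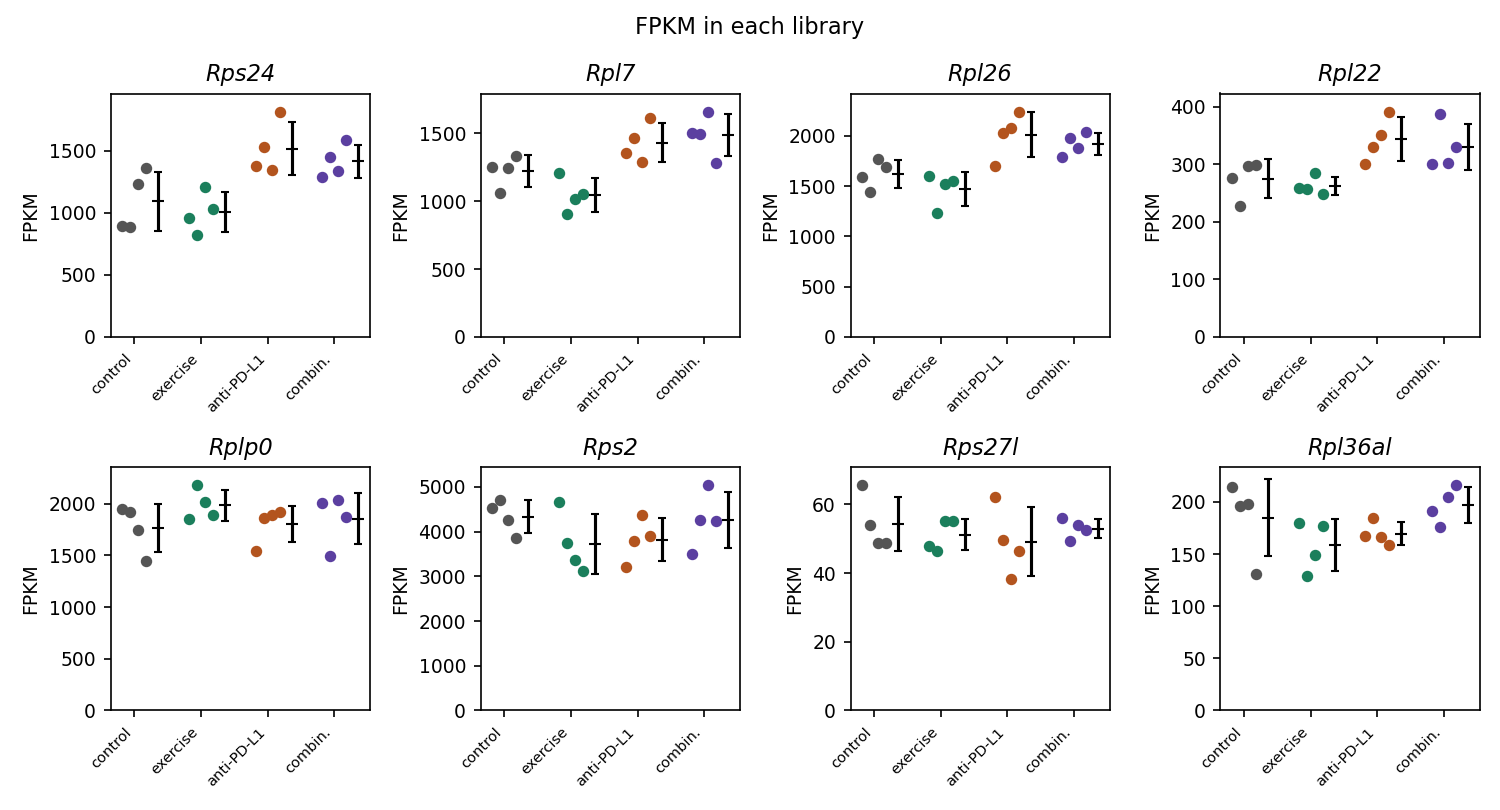
FPKM of 8 ribosomal protein genes in each library, by group, from 0 upwards, with the group mean ± SD (n = 4) as bars. Rps24, Rpl7, Rpl26 and Rpl22 were called in the antibody contrast, and in Rpl22 the libraries with and without antibody do not overlap. Rplp0, Rps2, Rps27l and Rpl36al did not follow the other members.

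Small and large subunits had close medians. The mean log2 level of the small subunit minus that of the large one was -0.13 ± 0.03, -0.18 ± 0.06, -0.10 ± 0.03 and -0.13 ± 0.04 (SD, n = 4) in control, exercise, anti-PD-L1 and combination tumours. The ranges of the groups overlapped. The antibody contrast had a median of 0.29 over 30 small subunit members, 0.25 over 43 large subunit members and 0.28 over the 3 P stalk members, with 2, 9 and 1 called. Other members of known roles gave values in the same range without passing the threshold. Rps14, Rps19 and Rps27a, the last made as a fusion with ubiquitin, differed by 0.32 ± 0.09, 0.32 ± 0.10 and 0.32 ± 0.11. Rps4x and Rpsa, the laminin receptor precursor, differed by 0.29 ± 0.09 and 0.17 ± 0.09, and Rpl3 and Rpl10, of the peptidyl transferase region and its surroundings, by 0.25 ± 0.08 and 0.26 ± 0.08. Their adjusted p in limma lay between 0.0733 and 0.296.

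Most members were high in the same libraries and low in the same libraries, within groups as well as between them. Pearson's r of a member with the mean of the other members over 16 libraries had a median of 0.83, and 0.75 after group means were removed. It was above 0.8 in 47 members, under 0.5 in 9 and below 0 in 3, and the first principal component of the members held 63.1% of their variance. All genes of a library share its scaling, which enters every such r. Under quantile normalization, which forces one distribution on all libraries, the median r was 0.45. The non-members most like the mean of the members were Fau (r = 0.92), which encodes RPS30 and so belongs to the small subunit, LOC100044627 and LOC100862455 (0.92 each, with identical values), Nsa2 (0.89), a factor of large subunit assembly, and Cox7a2l (0.87).

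**Figure D4:**
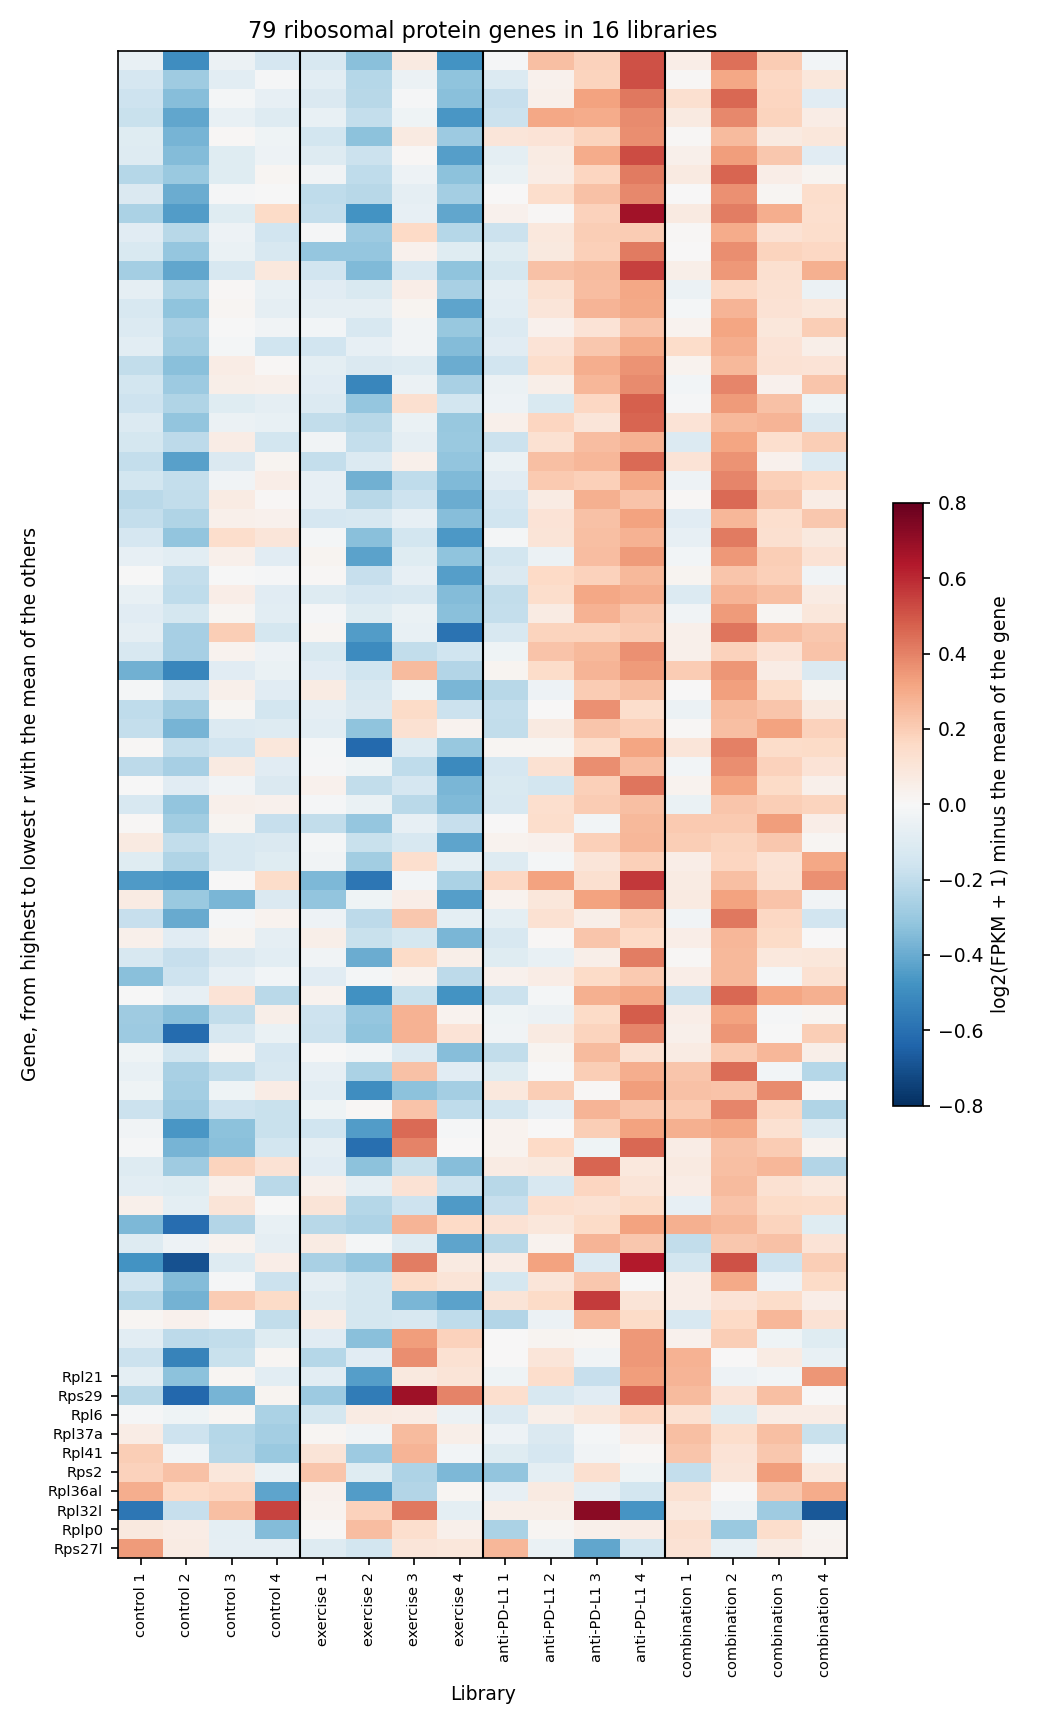
Each of the 79 genes tested (rows, from the highest to the lowest r with the mean of the other members, with the 10 lowest named) in each of the 16 libraries (columns, by group), coloured by log2(FPKM + 1) minus the mean of the gene over all libraries. Most rows are low in control 2, exercise 2 and exercise 4 and high in anti-PD-L1 library 4 and combination 2, and the lowest rows, Rps27l, Rplp0, Rpl32l, Rpl36al and Rps2, do not share this order.

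Several members departed from the common order. Rps27l (r = -0.38) measured 65.6, 53.9, 48.9 and 48.9 FPKM in the control libraries, 47.9, 46.5, 55.1 and 55.0 with exercise, 62.3, 49.6, 38.4 and 46.4 with anti-PD-L1, and 56.0, 49.3, 54.0 and 52.5 in the combination. Control 1 and anti-PD-L1 library 1 were highest, anti-PD-L1 library 3 was lowest, and the antibody difference was -0.05 ± 0.09. Rplp0 (r = -0.18) is described above, and Rpl32l (r = -0.07) ranged from 0.50 to 2.95 FPKM. Rps2 (r = 0.17) measured 4536, 4698, 4258 and 3851 FPKM in the control libraries, 4651, 3742, 3362 and 3115 with exercise, 3205, 3785, 4371 and 3905 with anti-PD-L1, and 3493, 4267, 5039.6 and 4228 in the combination. Its controls were as high as its antibody libraries, exercise 2, 3 and 4 were lower than all controls, and the antibody difference was 0.01 ± 0.10. The transcript of Rps2 shares 76.8% of its windows with 71 other genes.

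When each library was centred on the mean of the members, so that a member is read against the other RPs, 5 members were called in the antibody contrast in limma. Rps24, Rpl30 and Rpl17 lay higher than the rest, by 0.25 ± 0.09, 0.21 ± 0.07 and 0.18 ± 0.07, with adjusted p of 0.0314, 0.0333 and 0.0373. Rplp0 and Rps2 lay lower, by -0.28 ± 0.10 and -0.24 ± 0.09, with adjusted p of 0.0332 and 0.0425. This centring moved the median of all genes to -0.28 and called 48% of all genes, 100 higher and 5594 lower, where 147 and 139 were called without it. Rps2 was also called lower in anti-PD-L1 against control on this scale, by -0.42 ± 0.13 (adjusted p 0.0442), beside 14.4% of all genes. Quantile normalization left 1 member called, Rps15a, with 169 genes called higher and 122 lower, and 63 of 79 members above 0.

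Rps29, Rps27 and Rpl32l varied most, with Rps24 and Rpl30, and Rpl6, Rpl18 and Rpl15 least. Rps29 measured 205, 154, 184 and 242 FPKM in the control libraries, 195, 161, 381 and 314 with exercise, 261, 218, 224 and 329 with anti-PD-L1, and 284, 258, 282 and 239 in the combination. Exercise 3 and anti-PD-L1 library 4 were highest and control 2 lowest, and the difference of Rps29 was 0.24 ± 0.16 (adjusted p 0.37 in limma). Rps27, whose windows are 98.7% shared with other transcripts, ranged from 997 to 2509 FPKM with a difference of 0.33 ± 0.15 (0.214). Rpl6 measured 1500.2, 1476, 1526 and 1270.4 FPKM in the control libraries, 1372, 1581, 1574 and 1465 with exercise, 1401, 1559.9, 1607 and 1705 with anti-PD-L1, and 1646, 1414, 1575 and 1574 in the combination, with all groups overlapping and a difference of 0.09 ± 0.06 (0.435). Rps6 ranged from 37.6 to 75.4 FPKM, with exercise 3 and 4 and control 2 lowest and anti-PD-L1 library 3 highest, and differed by 0.32 ± 0.09 (0.0797).

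The X-linked Rpl36a and its paralogue Rpl36al gave different values. Their coding sequences are identical at 87.7% of 318 bases. Rpl36a (chromosome X, 134585654 to 134588062) had group means of 805 ± 89.5, 731 ± 106, 959 ± 131 and 955 ± 127 FPKM (SD, n = 4) in the order control, exercise, anti-PD-L1, combination. In that order Rpl36al (chromosome 12, 69182734 to 69184067) had 185 ± 37.0, 159 ± 24.5, 169 ± 10.9 and 197 ± 17.5 FPKM. The antibody differences were 0.32 ± 0.09 and 0.11 ± 0.10, and the difference between them was not tested. Rpl39 differed by 0.30 ± 0.10 (adjusted p 0.122 in limma).

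Ribosomal genes and paralogues outside the symbol rule gave different values. Fau differed by 0.36 ± 0.10 (adjusted p 0.0646 in limma) and Rps3a1 by 0.31 ± 0.08 (0.0621). Rpl7l1, a paralogue at 32.0 to 54.5 FPKM, differed by -0.06 ± 0.09 (0.74). Rps27rt and Rpl37rt differed by 0.56 ± 0.17 (0.0881) and 0.22 ± 0.19 (0.512).

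Other lists of the translation machinery had lower medians than the members. In the antibody contrast the list of elongation factors and other TOP messenger RNAs, which also holds Fau, had a median of 0.16 over 20 genes, 18 of them above 0. It held 1 call, Tpt1, a TOP gene that encodes a small calcium-binding protein, which rose by 0.47 ± 0.10 (adjusted p 0.0336 in limma). The initiation factors Eif3e, Eif3f, Eif3h, Eif3l and Eif4b were placed in this TOP list. Of these, Eif3e and Eif3f differed by 0.36 ± 0.10 and 0.29 ± 0.09 (adjusted p 0.0667 and 0.0948 in limma). The list of other initiation factors had a median of 0.00185 over 31 genes. Its 1 call was Eif4g1, the scaffold of the cap-binding complex, which fell by 0.28 on the log2 scale (adjusted p 0.0464 in limma). Ribosome biogenesis factors had a median of -0.06 over 75 genes and RNA polymerase I and its factors -0.08 over 19, with 0 called by limma in each. Ddx47, a helicase of small subunit processing, had the smallest p of the biogenesis list, at -0.21 ± 0.06 (adjusted p 0.0593). Mitochondrial RPs, which serve a separate ribosome, had a median of -0.06 over 78 genes with 23 above 0, and 1 called, Mrps6, which fell by 0.35 (adjusted p 0.0334 in limma).

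MYC and mTORC1 regulators had a median of -0.00242 over 19 genes. Myc differed by 0.27 ± 0.09 (adjusted p 0.0962 in limma), Mxd4, an antagonist of MYC, by -0.36 ± 0.12 (0.111), and Eif4ebp2, a translational repressor under mTORC1, fell by 0.33 (0.0462). In the list of the 5S particle and the p53 axis the median was 0.14 over 10 genes, with Rpl5 as the one call. This list also holds the members Rpl11 and Rps27l beside Rpl5, so its median is partly that of members. Cdkn1a, the p53 target that encodes p21, differed by 0.39 ± 0.15 (adjusted p 0.158 in limma) and Sesn2 by 0.35 ± 0.16 (0.223). Mdm2, Trp53 and Ccng1 differed by 0.05 ± 0.09, 0.002 ± 0.11 and 0.10 ± 0.09, with adjusted p of 0.771, 0.993 and 0.511 in limma. These lists were compared by their counts and medians alone, with 2.41% of all genes called and a median of -0.03 over all genes as the background.

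**Figure D5:**
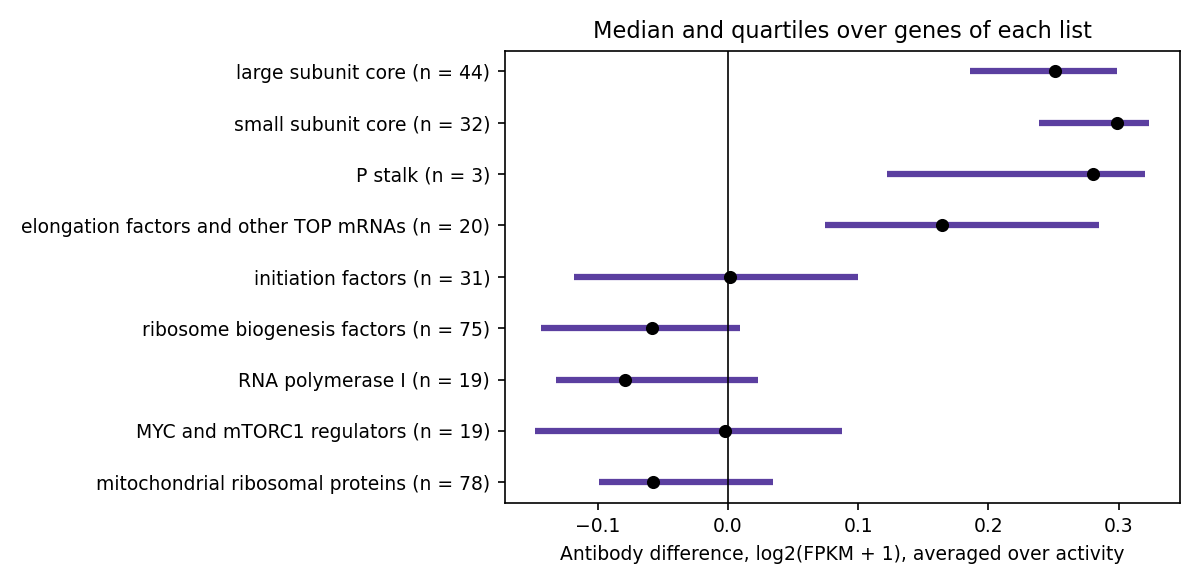
Median (point) and quartiles (bar) over the genes of each list of the antibody difference, groups with antibody minus groups without, on the log2(FPKM + 1) scale, with the number of genes tested. The 3 ribosomal protein lists at the top, which also hold core genes outside the symbol rule, have medians of 0.25 (large subunit), 0.30 (small subunit) and 0.28 (P stalk), and the biogenesis, RNA polymerase I and mitochondrial lists have medians between -0.08 and -0.06.

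Markers of other cells also differed along the antibody contrast, and their part in the values of the members was not tested. Of 14 macrophage markers 12 lay below 0, with a median of -0.73 and 0 called by limma, and their summed level was 507 to 2060.0 FPKM in control, 614 to 1068 with exercise, 408 to 845 with anti-PD-L1 and 456 to 1342 in the combination. Of 5 T and NK cell markers tested, all lay above 0 with a median of 0.91, and Nkg7 and Gzmb rose. The 13 of 14 listed genes that the files hold summed to 5.89 to 11.6 FPKM in control, 11.7 to 17.7 with exercise, 18.8 to 50.3 with anti-PD-L1 and 12.8 to 31.7 in the combination. Medians were -0.66 over 9 fibroblast markers and -0.51 over 8 endothelial markers, of which Cldn5 fell. Skeletal muscle markers summed to up to 342.6 FPKM in control and to at most 16.6 in the other groups. All 5 red blood cell markers lay below 0, with a median of -0.37 and 0 called by limma, although their sum reached 4071 FPKM in an anti-PD-L1 library and at most 792 in the other groups. Of 8 neutrophil markers 6 were tested, with a median of -0.18 and Mmp8 called higher, and B cell markers summed to 0.95 to 2.29 FPKM. No marker was at 0 in all libraries. Length and abundance were also looked at, and their part in the values of the members was not tested. Length was the median over all annotated protein-coding transcripts of a gene, so Eef1a1 and Hsp90ab1 counted as short, at 859 and 614 bases. Other genes with a mean of at least 100 FPKM were split at a length of 1000 bases. The 215 of at most 1000 bases had a median antibody difference of -0.05. Without the ribosomal and related genes among them, 211 remained, with a median of -0.05 and 38.4% above 0. The 334 longer genes, not filtered in this way, had -0.04, with 39.8% above 0.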

How the data were processed

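Messenger RNA levels of MC38 tumours were available as 1 deposited table per library, 16 in all. The authors' values are FPKM, per the file headers, for 18480 entries. The submitters' processing notes list HISAT, Bowtie2 and GRCm38.p6, without version or role. For the program behind the FPKM, the library kit and the strand setting, nothing is given in the sources used here. FPKM hold no counts, so depth is unknown and counting intervals cannot be given.

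A gene was tested if 4 or more libraries had 1 FPKM or more (11868 genes). Values were taken as log2(FPKM + 1), a scale that understates changes of low genes. 1 limma model (limma 3.58.1, R 4.3.3, trend and robust empirical Bayes) with the group as its only term was fitted to the 16 libraries, with Benjamini-Hochberg adjustment over all genes within each contrast. Of the tests planned for counts or for FPKM, that for FPKM was used. The averages over activity and over antibody were added after the values were seen. The model was tested on simulated data. Same-numbered libraries were not paired by the labels.

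The members, the gene lists and the markers were chosen with earlier results of these data known. Members were named when called, or as the 3 with the smallest p of a contrast, as the highest, lowest, most variable, least variable or least correlated, or from a fixed panel of roles, apart from a gene not reported here. Coordinates and promoter windows come from RefSeq and transcripts from GENCODE, both on GRCm38. Alternatives were pseudocounts of 0.1 and 0.01, no filter, a mean of at least 5 FPKM, quantile normalization, centring on medians or on the members, limma without trend and robust settings, only the groups compared, a replicate block, library weights and leaving out each library. Figures were drawn with matplotlib 3.10.9.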

Additional observations from a re-analysis of the deposited data

Results flagged for a closer look

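Among 180 sets of 4 libraries checked (44 named members and the member share, in each of the 4 groups), 6 held a library whose gap to the nearest of the others exceeded the critical value of Dixon's test as a share of the range of the group. In independent sets of normal values, chance alone gives about 1 in 20. The sets here share their libraries and most members vary together, so 6 of 180 cannot be judged against that rate. Anti-PD-L1 library 1 was lowest of its group in Rplp0, at 1544 FPKM beside 1858 to 1915, and in Rps26, a small subunit protein near the exit of the messenger RNA, at 2363 FPKM beside 2924 to 2997. This library also had the lowest member share of the antibody libraries, 19.8%. Rps6 was highest in anti-PD-L1 library 3, at 75.4 FPKM beside 54.7 to 56.7. Rpl3 was lowest in exercise 4, at 857 FPKM beside 991.5 to 1017. Rpl3l was highest in control 2, at 0.89 FPKM beside 0.47 to 0.53, in the group whose skeletal muscle markers reached 342.6 FPKM, and the part of that tissue in the value was not tested. Rpl10l stood at 0.05 FPKM in exercise 3 and was listed at 0 in the other 3 libraries of the group.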

How the results depend on the processing

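The median member difference of each comparison with antibody against one without, and of the antibody average, stayed above 0 in each of the 23 alternatives run for it other than centring on the members. That centring makes the mean of the members equal in every library and gave -0.0014 for anti-PD-L1 against control, 0.0144 for the combination against control, 0.0233 against exercise, 0.0135 for anti-PD-L1 against exercise and 0.0140 for the antibody average. Quantile normalization gave 0.0659, 0.0903, 0.0837, 0.0880 and 0.0876 in the same order, and a median r of 0.448. Counts of called members were less stable. Against 12 in the antibody average, no filter gave 1, quantile normalization 1, centring on medians 5, centring on members 5, and leaving out controls 1 and 2 together 0. Over all genes, quantile normalization called 169 higher and 122 lower, centring on members called 5694, and leaving out both controls called 28. A member count given below without its count over all genes is no result about the members, and the same holds for no filter and centring on medians. Same-numbered libraries did not deviate together, as 6 of 24 pairs had r over 0.1 and 1 of 16 libraries correlated best with its own number. With the replicate number as a block, 2 members were called in the antibody average and 0 in anti-PD-L1 against exercise. In that last comparison the single call became 0 with no filter, quantile normalization, centring on medians or only the groups compared. It became 0 with centring on the members too, beside 1234 of all genes. Without controls 1 and 2 it became 3, and with library weights 5. Library weights gave 1 member call for exercise against control, beside 2274 of all genes, and 2 for anti-PD-L1 against control. They gave 3 for the combination against exercise, beside 222 of all genes, and 11 in the test of any difference, beside 1626. Centring on the members gave 1 call in anti-PD-L1 against control, beside 1710 of all genes. Leaving out 1 library gave 0 to 17 member calls in the antibody average and 0 to 4 in anti-PD-L1 against control. It gave 0 to 2 each in anti-PD-L1 and the combination against exercise, and 0 to 1 in the test of any difference. Over all genes the same fits called 40 to 516, 6 to 768, 9 to 422, 0 to 184 and 5 to 305, in that order. Of the called members, Rpl7 passed in 15 of 27 alternatives of the antibody average, with an adjusted p of 0.0132 to 0.22 in limma, and Rpl13a in 5, with 0.0358 to 0.547. Over all genes, calls ranged from 28 to 5694 in the antibody average, beside 286, from 4 to 1710 in anti-PD-L1 against control, beside 30, from 9 to 1234 in anti-PD-L1 against exercise, beside 188, from 0 to 222 in the combination against exercise, beside 0, from 0 to 2274 in exercise against control, beside 0, from 0 to 223 in the interaction, beside 0, and from 5 to 1626 in the test of any difference, beside 16. The cause of these changes was not tested. Depth is unknown, and 4 libraries a group limit the precision of every value.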
